A study of Mus musculus with 4 samples.

Results

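The genes described here are those of fibroblast growth factor (FGF) signalling in the retina: the ligands Fgf1, Fgf2, Fgf9 and Fgf15, the intracellular family members Fgf11 and Fgf13, the receptors Fgfr1, Fgfr2 and Fgfr3, and Nudt6, the gene that lies next to Fgf2 on the opposite strand. They were taken by symbol from the deposited expression tables, 10 genes of the 22558 symbols in the series. The tested mice carried Msi1-CreERT2/+ and R26R-DTA/+, so that a ligand-activated Cre recombinase driven from the Musashi 1 gene switches on diphtheria toxin fragment A (DTA) in the cells where Cre acts. The controls were +/+ for the Cre allele and also carried R26R-DTA/+. Whole retinas were collected at day 1 or day 5 after injury, a time label that the controls carry too, and the mice, mixed C57BL/6 and 129 in strain, were aged about 8 weeks. Each of the 4 groups (DTA and control at day 1, DTA and control at day 5) is 1 RNA-seq library. There are no replicates, so no p-value or standard deviation can be given, and the labels do not say how many mice went into each. They also do not say which cells carried active Cre. The values describe the whole retina, in which fewer cells of a type and less RNA per cell cannot be told apart.

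FGF ligands bind receptor tyrosine kinases together with heparan sulfate on the cell surface, and the receptors signal through the adaptor FRS2 to the Ras and ERK kinases, which induce feedback inhibitors such as the Sprouty proteins. FGF1 and FGF2 lack a classical secretion signal, FGF9 is secreted, and FGF15 is a hormone-like ligand known from the embryonic neural retina and the gut. FGF11 and FGF13 belong to a branch that stays inside the cell and binds voltage-gated sodium channels. In the retina FGF2 is known as a survival factor for photoreceptors that is induced in several forms of injury.

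Levels are given in FPKM, a fragment count divided by transcript length in kilobases and by library depth. Each difference is the log2(FPKM + 1) of DTA less that of control, a scale that understates the change of low genes. Calls were by size alone and needed 3 things: a difference of 1 or more in size, a level of 5 FPKM or more in either library compared, and a gap between the 2 controls for the same gene that was smaller than the difference. The libraries held an estimated 99.1 M (DTA day 1), 73.7 M (control day 1), 28.9 M (DTA day 5) and 35.7 M (control day 5) fragments, where M stands for mega. These estimates rest on 20, 87, 119 and 103 genes in the same order, the fewest for DTA day 1. The day 1 DTA table holds 5799 symbols and only Fgf11 among the 10 genes, so the other 9 were not analysed here in that library. The retinal identity of the libraries was seen in the 9 measurable rod markers, which summed to 4248 FPKM in day 5 DTA, 13919 FPKM in day 5 control and 11032 FPKM in day 1 control. Lens transcripts were high at day 1: the 17 markers summed to 19.9 FPKM in day 5 DTA, 324 FPKM in day 5 control and 2441 FPKM in day 1 control, and the 9 of them measured in both day 1 libraries summed to 2312 FPKM in DTA and 1104 FPKM in control. Of the 3 full libraries, the day 1 control also stood apart in Xist, the RNA of the inactive X chromosome, at 60.4 FPKM in day 5 DTA, 53.7 FPKM in day 5 control and 0.00596 FPKM in day 1 control. Ddx3y, a Y chromosome gene, stood at 0.275, 0.175 and 15.6 FPKM in the same order. By these 2 genes the day 1 control was male and the day 5 libraries female, so day and sex cannot be told apart between them.

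At day 5 the FGF genes did not move as a group: Fgf2 and its neighbour Nudt6 stood far higher in DTA than in control retina, Fgf1 stood lower without reaching the size rule, and Fgfr1 and the intracellular members differed little. Fgfr2 and Fgfr3, below 1 FPKM, stood above the day 5 control and below the day 1 control. Of the 10 genes, 6 reached 5 FPKM in at least 1 of the day 5 libraries, and 2 of these were called higher and none lower. Over all 9895 genes at that level, 6.74% were called higher and 1.77% lower, 8.51% in all. The 2 called, Fgf2 and Nudt6, stood at 3.57 and 4.75 FPKM in day 5 control. They met the floor only through the library where they were high, so the count beside that share is no result about these genes. Between the controls none of the 10 passed the same size of difference, and the largest difference among the 10 was 0.63 in size. Of the 9321 genes at the floor in a control, 2.57% passed it (0.858% higher and 1.72% lower in day 5 control). Among the 10 only Fgf1, Fgf9, Fgf11, Fgf13 and Fgfr1 reached that floor. The lack of a call between the controls is thus no result about these genes. The median of all tested genes was itself 0.26 above 0 at day 5, so a gene at 0.26 stood where the typical gene did.

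**Figure D1:**
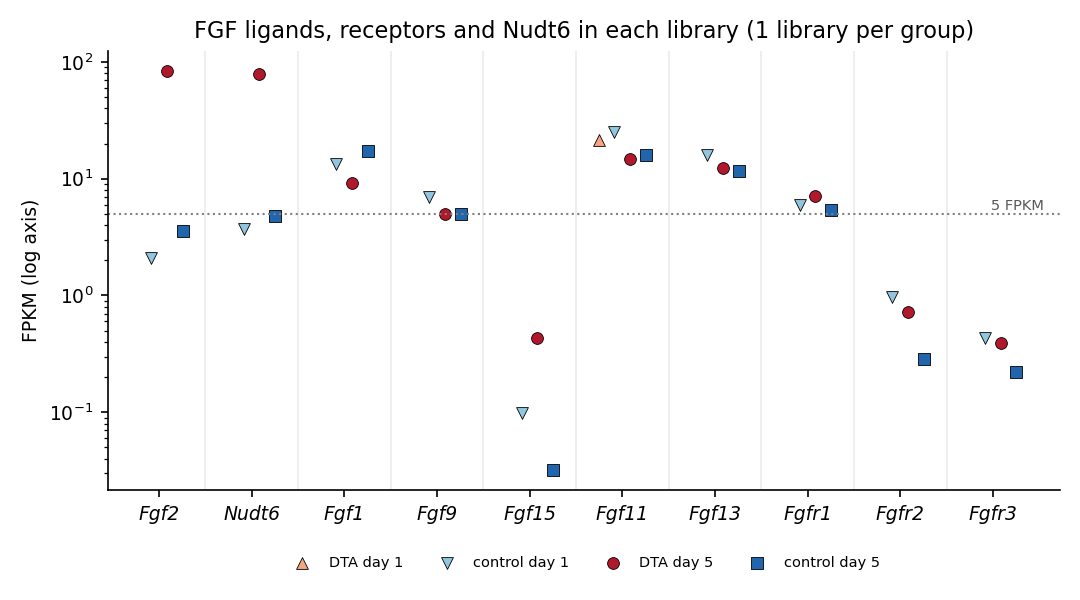
Level of each gene in each library, as FPKM on a log axis, with 1 point per library and a dotted line at 5 FPKM. Fgf2 and Nudt6 in day 5 DTA stand at 84.0 and 78.9 FPKM, far above their control points, while the points of the other genes lie close together or, for Fgf15, Fgfr2 and Fgfr3, below 1 FPKM.

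Fgf2, basic fibroblast growth factor (chromosome 3, 37247575 to 37303752, plus strand, mm9), stood at 84.0 FPKM in day 5 DTA, against 3.57 FPKM in day 5 control and 2.10 FPKM in day 1 control. The DTA value is 23.5-fold the day 5 control. The DTA library was far above both controls, which differed far less from each other. On the log2 scale the difference was 4.22 from the day 5 control and 4.78 from the day 1 control, against 0.56 between the controls. The value in day 5 DTA lies above the authors' own upper bound of 66.1 FPKM (lower bound 56.9 FPKM). Of the 31 values of these genes, 7 lay outside their bounds. Among all lines at 5 FPKM or more the share outside was 24.9% in day 5 DTA and 26.2% in day 5 control. It was 43.3% in day 1 control and 52.0% in day 1 DTA. The 7 are thus no result about these genes, and the bounds are a rough guide only. With the midpoint of the bounds in place of the FPKM the difference was 4.01.

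Markers of some other cells moved in the same comparison. Of 8 reactive glia and astrocyte markers 7 were called higher, with a summed level of 375 FPKM in day 5 DTA and 18.8 FPKM in day 5 control. The other, Pax2, lay under the floor and differed by 0.04. Of 12 microglia and macrophage markers 10 were called higher, with sums of 171 FPKM in day 5 DTA and 22.6 FPKM in day 5 control. Of 10 Müller glia markers 2 were called lower, 1 was called higher and the other 7 were not called, with a median difference of -0.33. Their sums were 983 FPKM in day 5 DTA and 1839 FPKM in day 5 control, most of the gap being Glul, glutamine synthetase, at 159 FPKM in day 5 DTA and 888 FPKM in day 5 control, while Vim, vimentin, was the one called higher at 127 FPKM in day 5 DTA and 54.8 FPKM in day 5 control. Over all tested genes 6.74% were called higher and 1.77% lower. Except for Gfap, the called genes of the first 2 lists met the floor only in day 5 DTA, where they were high. No marker of these 3 lists was at 0. None of the bipolar, amacrine, horizontal, ganglion cell or endothelium and pericyte markers was called in either direction. Of these, 8, 5, 2, 8 and 3 reached the floor, in that order. The part of any of these cells in the Fgf2 difference was not tested.

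Nudt6 encodes a Nudix hydrolase, a family that cleaves nucleoside diphosphates linked to other groups, and its RNA is known as an antisense partner of Fgf2 in several vertebrates. It lies at chromosome 3, 37303906 to 37318512, minus strand. It stood at 78.9 FPKM in day 5 DTA, against 4.75 FPKM in day 5 control and 3.71 FPKM in day 1 control. Its difference was 3.80 from the day 5 control and 0.29 between the controls, and the DTA library again lay far above both controls. Like that of Fgf2, the Nudt6 value in day 5 DTA lies above the authors' upper bound, 68.9 FPKM (lower bound 61.8 FPKM). With the midpoint of the bounds the Nudt6 difference was 3.69. The level of Fgf2 divided by that of Nudt6 was 1.06 in day 5 DTA, 0.752 in day 5 control and 0.566 in day 1 control. In day 5 DTA the bounds of the 2 genes overlap, so which of them was higher there is not settled.

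How far the values of the 2 genes are separate depends on the gene models. In the deposited table the loci do not touch and leave a gap of 153 bases between the Fgf2 end and the Nudt6 end. RefSeq on the later build GRCm38.p6 extends Fgf2 so that the 2 spans share 5125 bases, and the Fgf2 transcript that reaches furthest in GENCODE, on the build of the files, overlaps GENCODE's Nudt6 by 468 bases. The deposited Fgf2 locus is close to a GENCODE transcript of 754 exonic bases that starts at the same base and ends 59 bases later, so the long 3' end of RefSeq lies outside it. The labels do not state a stranded library, and without strand fragments from the shared stretch cannot be assigned to one gene or the other.

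The 2 genes start at opposite ends of the locus, and their promoters are shown because both stood higher in the same library. The windows run from 250 bases before to 50 bases after the start site, as RefSeq gives them on GRCm38.p6, Fgf2 at chr3:37348403-37348702 on the plus strand and Nudt6 at chr3:37419547-37419846 on the minus strand, both written in the direction of their own transcription. Capitals mark matches of 6 motifs searched on both strands.
Fgf2: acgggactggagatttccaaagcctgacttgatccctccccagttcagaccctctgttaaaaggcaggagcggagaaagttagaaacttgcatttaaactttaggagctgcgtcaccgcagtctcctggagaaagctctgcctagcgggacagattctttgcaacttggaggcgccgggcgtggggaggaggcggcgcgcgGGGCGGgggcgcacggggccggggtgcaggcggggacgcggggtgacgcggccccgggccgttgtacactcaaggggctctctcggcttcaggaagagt
Nudt6: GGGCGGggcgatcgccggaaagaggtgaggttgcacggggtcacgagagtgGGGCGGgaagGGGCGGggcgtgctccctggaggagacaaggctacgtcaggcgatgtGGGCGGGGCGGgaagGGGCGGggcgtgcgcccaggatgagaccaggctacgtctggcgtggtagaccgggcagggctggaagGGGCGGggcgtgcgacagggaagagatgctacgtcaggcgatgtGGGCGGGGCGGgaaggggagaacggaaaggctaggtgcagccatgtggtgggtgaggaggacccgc

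The Fgf2 window holds 1 match and the Nudt6 window 9 matches of the GC box GGGCGG, a letter string that 35.7% of all 32851 windows hold, where matches that start 5 bases apart, as 2 pairs in Nudt6 do, share a base. Neither window holds the AP-1 string TGANTCA (7.81% of windows), the STAT string TTCNNNGAA (8.30%), the CRE string TGACGTCA (1.79%), the TATA box TATAAA (13.6%) or the E-box CACGTG (7.15%). GC made up 62.7% of the Fgf2 window and 70.3% of the Nudt6 window, against a median of 52.7% over all windows. The table held windows for 7 of the 10 genes. Among the other 5, both Fgfr3 windows and 2 of 4 Fgf13 windows hold the GC box, the Fgfr2 window holds the E-box string, 1 Fgf13 window holds the AP-1 string and a TATA box, and those of Fgf9 and Fgf11 hold none of the 6.

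The genes on either side of the pair were also read, a window of 250 kb chosen after their values were seen. Of the 8 other genes in it, 5 reached the floor and 3 of these were called higher, Nudt6, Cetn4 and Spata5. Of the day 5 libraries these 3 reached the floor only in DTA, where they were high. The count is thus no result about the region beside the 6.74% called higher over all tested genes. Il2, Il21 and Adad1 lay under the floor and could not be called. Spata5, which encodes an AAA ATPase, starts 689 bases beyond the Nudt6 start on the plus strand and stood at 18.8 FPKM in day 5 DTA, 4.32 FPKM in day 5 control and 4.68 FPKM in day 1 control, a difference of 1.90. Cetn4, a centrin gene of ciliated cells, lies 36206 bases before Fgf2 on the minus strand and stood at 18.5 FPKM in day 5 DTA, 4.35 FPKM in day 5 control and 6.25 FPKM in day 1 control, a difference of 1.87. Bbs12, a gene of the chaperonin-like complex that builds the ciliary BBSome, lies between Cetn4 and Fgf2, starts 107 bases from Cetn4 and was not called, at 12.1 FPKM in day 5 DTA, 8.49 FPKM in day 5 control and 11.1 FPKM in day 1 control. Spry1, a feedback inhibitor of FGF receptor signalling at the far side of Spata5, stood at 5.03 FPKM in day 5 DTA and 2.54 FPKM in day 5 control, a difference of 0.77 under the size rule. Il21 and Il2 were at or below 0.262 FPKM in each of the 3 full libraries, and Adad1 was listed at 0 in all 3.

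**Figure D2:**
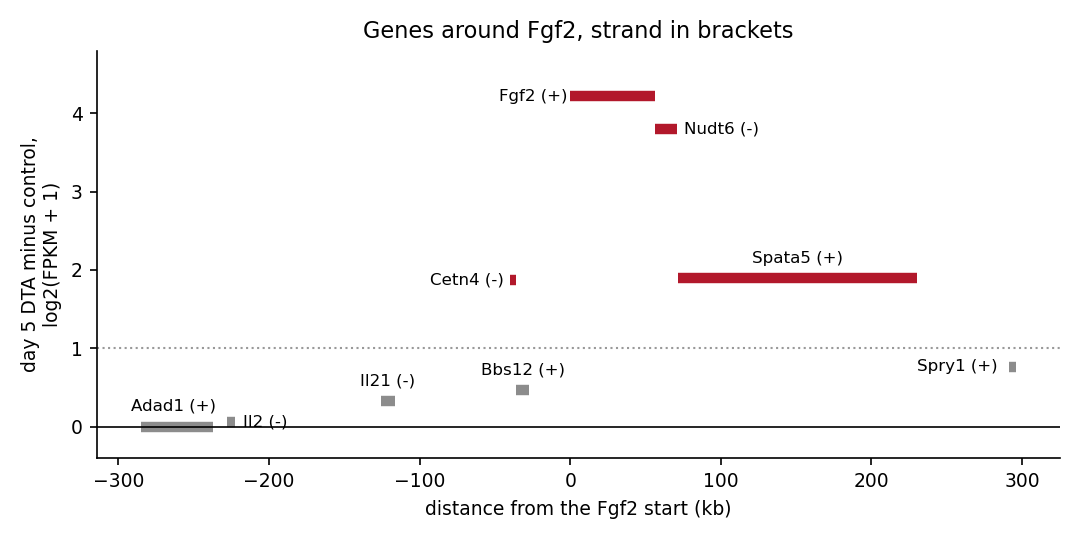
Difference between day 5 DTA and day 5 control, on the log2(FPKM + 1) scale, for each gene within 250 kb of Fgf2, drawn over its extent as distance from the Fgf2 start in kb. Fgf2 at 4.22 and Nudt6 at 3.80 stand highest, Spata5 at 1.90 and Cetn4 at 1.87 follow, and the grey bars are genes that were not called.

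Fgf1, acidic fibroblast growth factor and the ligand that binds the receptor family most broadly (chromosome 18, 38998327 to 39078353, minus strand), went the other way. It stood at 9.11 FPKM in day 5 DTA, against 17.2 FPKM in day 5 control and 13.4 FPKM in day 1 control. The DTA library was the lowest of the 3, with the authors' bounds of 8.22 to 9.63 FPKM below those of both controls. The difference of -0.85 did not reach the size rule, and it was -0.51 from the day 1 control. Relative to the median of all tested genes it was -1.11, and Fgf1 was called lower after scaling by the median ratio (-1.07) or to the sum without rod markers and the most abundant genes (-1.01). Of the 9 measurable rod markers 6 were called lower in the same comparison, none of them at 0, and the part of rod transcripts in the Fgf1 difference was not tested.

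Fgf9, a secreted ligand known from the developing neural retina (chromosome 14, 58691523 to 58731557, plus strand), stood at 4.99 FPKM in day 5 DTA, 4.94 FPKM in day 5 control and 6.93 FPKM in day 1 control. The day 5 libraries differed by 0.01 with overlapping bounds, and both lay just under the floor of 5 FPKM. The day 1 control was the highest of the 3, by 0.42 over the day 5 control. The sign of the small day 5 difference turned under both rescalings, to -0.19 and -0.14.

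Fgf15, the mouse counterpart of human FGF19 (chromosome 7, 152082437 to 152086856, plus strand), was near the limit of detection. It stood at 0.429 FPKM in day 5 DTA, 0.0318 FPKM in day 5 control and 0.0986 FPKM in day 1 control. With 1809 exonic bases these values stand for about 22 fragments in day 5 DTA (exact Poisson 95% interval 13.8 to 33.3), 2 in day 5 control (0.242 to 7.22) and 13 in day 1 control (6.92 to 22.2). The ratio of day 5 DTA to day 5 control was 13.6 with a counting interval of 3.34 to 119, and to the day 1 control it was 4.31 with an interval of 2.08 to 9.31. These intervals cover counting error only, and Fgf15 stayed far under the floor in every library, with a difference of 0.47.

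Because FPKM is per length, the levels of the ligands can be set side by side as far as the gene models hold. The Fgf2 model leaves out the long 3' end of RefSeq, and the day 5 DTA value of Fgf2 lies above the authors' upper bound of 66.1 FPKM. The shares below rest on the values as deposited. The 18 FGF genes whose products bind receptors summed to 104 FPKM in day 5 DTA, 28.9 FPKM in day 5 control and 26.2 FPKM in day 1 control. Fgf2 made up 80.8% of that sum in day 5 DTA, 12.4% in day 5 control and 8.01% in day 1 control. Fgf1 made up 8.76% in day 5 DTA, 59.5% in day 5 control and 51.0% in day 1 control. Without Fgf2 the sum was 20.0 FPKM in day 5 DTA, 25.4 FPKM in day 5 control and 24.1 FPKM in day 1 control. The most abundant receptor ligand transcript was thus Fgf1 in both controls and Fgf2 in day 5 DTA, where Fgf2 stood at 9.22 times the level of Fgf1, against 0.207 times in day 5 control.

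**Figure D3:**
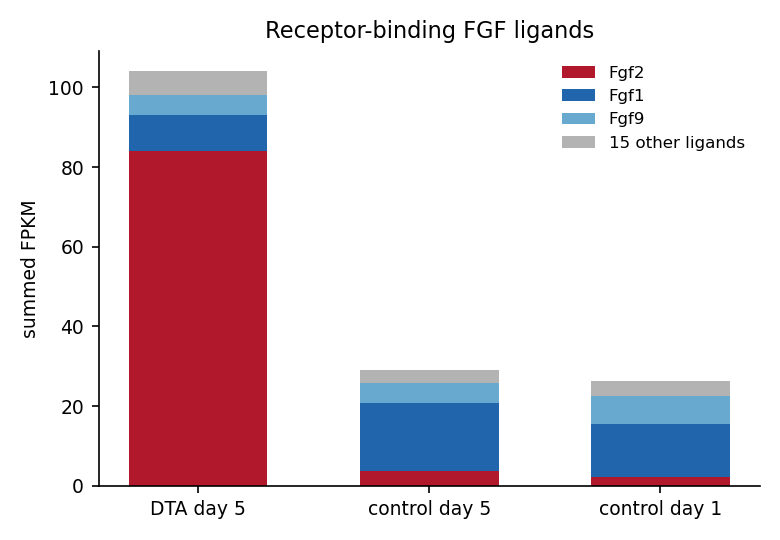
Summed FPKM of the 18 receptor-binding FGF genes in the 3 full libraries, split into Fgf2, Fgf1, Fgf9 and the 15 others. The day 5 DTA bar reaches 104 FPKM with Fgf2 as 80.8% of it, while the control bars reach 28.9 and 26.2 FPKM with Fgf1 as the largest share.

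Fgf11 (chromosome 11, 69611704 to 69615127, minus strand), an intracellular FGF of neurons, is the one gene of the set with a value in all 4 libraries. At day 1 it stood at 21.3 FPKM in DTA and 25.3 FPKM in control, a difference of -0.24. At day 5 it stood at 14.7 FPKM in DTA and 16.0 FPKM in control, a difference of -0.11. Neither was called, and of the 2623 genes tested at day 1, 2.06% were called higher and 0.61% lower, 2.67% in all. Both day 5 libraries were below both day 1 libraries, with 0.63 between the controls, a larger gap than between DTA and control at either day. Set against the day 5 control instead, the day 1 DTA value differed by 0.39, so its direction depends on which control is used. In each of the 4 libraries the Fgf11 value lies above the authors' upper bound, which was 16.7 FPKM in day 1 DTA, 19.9 FPKM in day 1 control, 13.2 FPKM in day 5 DTA and 13.6 FPKM in day 5 control.

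Fgf13 (X chromosome, 56315328 to 56387613, minus strand), the intracellular FGF best known for setting sodium channel availability in axons, stood at 12.3 FPKM in day 5 DTA, 11.7 FPKM in day 5 control and 15.9 FPKM in day 1 control. The day 5 difference was 0.06, and between the controls it was 0.40 in size, with the day 1 control the higher. The sign of the day 5 difference turned under both rescalings, to -0.16 and -0.10. Together with Fgf12 and Fgf14 the 4 intracellular FGFs summed to 45.9 FPKM in day 5 DTA, 49.1 FPKM in day 5 control and 66.3 FPKM in day 1 control.

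**Figure D4:**
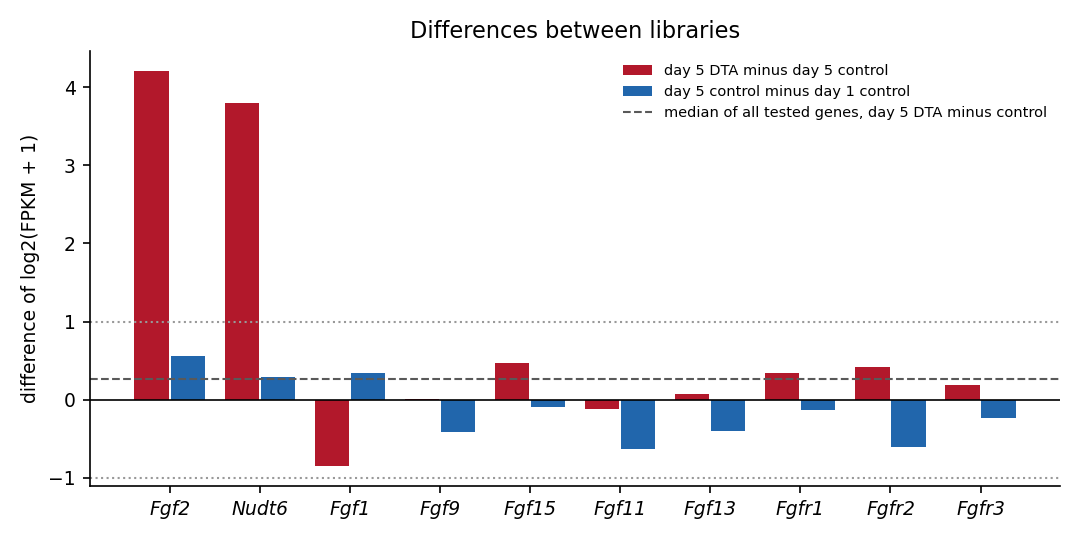
Difference of log2(FPKM + 1) for each gene between day 5 DTA and day 5 control and between the 2 controls, with dotted lines at 1 and -1 and a dashed line at the median of all tested genes, 0.26. Fgf2 and Nudt6 pass the upper line at 4.22 and 3.80, Fgf1 at -0.85 ends short of the lower one, and no difference between the controls passes either.

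Among the receptors, which are tyrosine kinases with immunoglobulin-like ectodomains, Fgfr1 was the most abundant in each of the 3 libraries. Fgfr1 (chromosome 8, 26629244 to 26686186, plus strand) stood at 7.04 FPKM in day 5 DTA, 5.34 FPKM in day 5 control and 5.99 FPKM in day 1 control. The DTA library was the highest, and its bounds of 6.55 to 7.53 FPKM lay above those of both controls. The difference of 0.34 was close to the median of all genes and was not called. Fgfr1 made up 80.6% of the summed FPKM of Fgfr1 to Fgfr4 in day 5 DTA, 87.5% in day 5 control and 78.0% in day 1 control.

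Fgfr2, whose splice forms bind different ligands (chromosome 7, 137305965 to 137410322, minus strand), stood at 0.722 FPKM in day 5 DTA, 0.285 FPKM in day 5 control and 0.965 FPKM in day 1 control. The day 5 control was the lowest and the DTA value lay between the controls, so that the difference was 0.42 from the day 5 control and -0.19 from the day 1 control. Fgfr3 (chromosome 5, 34064373 to 34079717, plus strand) had the same order at lower levels, with 0.392 FPKM in day 5 DTA, 0.221 FPKM in day 5 control and 0.432 FPKM in day 1 control. Its differences were 0.19 and -0.04, and the bounds of the day 5 libraries overlapped. By estimated fragments the ratio of day 5 DTA to day 5 control was 2.53 for Fgfr2 (counting interval 1.73 to 3.73) and 1.79 for Fgfr3 (1.13 to 2.89), and to the day 1 control it was 0.747 (0.582 to 0.95) and 0.912 (0.642 to 1.28). Lens and pigment epithelium transcripts also differed between the controls, the 11 pigment epithelium and melanocyte markers summing to 22.9 FPKM in day 5 DTA, 47.9 FPKM in day 5 control and 184 FPKM in day 1 control, with none at 0 in these 3 libraries. One of the 17 lens markers, Crygf, was listed at 0, in day 5 DTA. The part of either tissue in the receptor levels was not tested.

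In order of level, day 5 DTA ran Fgf2, Nudt6, Fgf11, Fgf13, Fgf1, Fgfr1, Fgf9, Fgfr2, Fgf15 and Fgfr3. The day 5 control ran Fgf1, Fgf11, Fgf13, Fgfr1, Fgf9, Nudt6, Fgf2, Fgfr2, Fgfr3 and Fgf15. The day 1 control had Fgf11, Fgf13 and Fgf1 on top, followed by Fgf9, Fgfr1, Nudt6 and Fgf2. Neighbours whose authors' bounds overlap have no settled order. Examples are Fgf2 and Nudt6 or Fgf15 and Fgfr3 in day 5 DTA, and Fgf9 and Nudt6 in day 5 control.

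The rest of the pathway was read from 7 lists of 108 entries, 106 of them measured at day 5 and 57 at 5 FPKM or more. Of these 57, 4 were called higher, which is 7.02% and close to the 6.74% over all tested genes, and none was called lower. The count is thus no result about the lists. Both Egr1 and Fos, immediate early transcription factors that ERK signalling and many other stimuli induce, were among the 4. Egr1 stood at 133 FPKM in day 5 DTA, 7.75 FPKM in day 5 control and 36.0 FPKM in day 1 control, a difference of 3.94, and Fos at 38.6 FPKM in day 5 DTA, 12.4 FPKM in day 5 control and 28.1 FPKM in day 1 control, a difference of 1.57. Against the day 1 control, with differences of 1.85 and 0.45, neither passed the rule. Both also passed the size rule between the controls, where day 5 control less day 1 control was -2.08 for Egr1 and -1.12 for Fos. At day 1, 24 genes were measured and 13 reached the floor. Fos was the 1 gene called, at 89.6 FPKM in DTA and 28.1 FPKM in control, a difference of 1.64. That is 7.69% of the 13 against 2.06% called higher over all tested genes, but a share of 1 gene is no result about the lists. None of the other genes named by the same rule was called at day 1, with differences of 0.54 for Sulf1, an enzyme that removes sulfate groups from heparan sulfate, 0.38 for Hs6st1, 0.46 for Etv4, -0.47 for Scn4a, -0.19 for Flrt2, 0.14 for Gpc1, 0.14 for Fgf22, 0.14 for Sos2 and 0.06 for Crk.

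The other called genes shape heparan sulfate, the co-receptor of FGFs. Agrn, the proteoglycan agrin, stood at 22.7 FPKM in day 5 DTA, 9.32 FPKM in day 5 control and 8.84 FPKM in day 1 control, a difference of 1.20. Sulf2, an enzyme that removes sulfate groups from heparan sulfate, stood at 27.3 FPKM in day 5 DTA, 11.9 FPKM in day 5 control and 12.5 FPKM in day 1 control, a difference of 1.14. Both calls ended after median ratio scaling (Agrn 0.97, Sulf2 0.90) and with a pseudocount of 5 (0.95 and 0.94), and that of Sulf2 also after scaling to the sum (0.96). Sulf1, of the same enzyme family as Sulf2, stood at 17.9 FPKM in day 5 DTA and 11.3 FPKM in day 5 control, and at 19.6 FPKM in day 1 DTA and 13.2 FPKM in day 1 control, with differences of 0.62 at day 5 and 0.54 at day 1 that were not called. Hs6st1, which adds sulfate to heparan sulfate, differed by 0.55 at day 5 and 0.38 at day 1, and Hspg2, perlecan, by 0.57 and Sdc2, syndecan 2, by -0.48 at day 5.

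Egr1 and Fos belong to the list of 18 feedback and target genes, of which 11 reached the floor and no other was called. The list's median difference was 0.21, against 0.26 over all tested genes, with 12 differences above 0 and 6 below. Apart from Egr1, Fos and Myc the differences ran between -0.55 for Etv1, an ETS transcription factor, and 0.77 for Spry1. Myc, a growth regulator, stood at 3.56 FPKM in day 5 DTA and 0.174 FPKM in day 5 control, a difference of 1.96 under the floor. None of the 21 measured adaptor and Ras to ERK genes was called (median 0.23), with the GTPase gene Nras at 0.63.

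Of the 16 other FGF family genes, 1 reached the floor at day 5 and none was called (median 0.02). Fgf17, of the Fgf8 subfamily, stood at 1.90 FPKM in day 5 DTA, 0.258 FPKM in day 5 control and 0.0574 FPKM in day 1 control, a difference of 1.20 under the floor, and Fgf12 differed by -0.19. The 6 other receptors and co-receptors all lay under the floor (median 0.18), with the carrier protein gene Fgfbp3 at 0.41 and the decoy-like receptor gene Fgfrl1 at 0.09. None of the 14 measured sodium channel and scaffold genes that partner the intracellular FGFs was called (median -0.04). Scn4a, a sodium channel best known from skeletal muscle, stood at 0.614 FPKM in day 5 DTA and 3.31 FPKM in day 5 control, a difference of -1.42 under the floor. The medians of the heparan sulfate core protein and enzyme lists were 0.22 and 0.09.

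**Figure D5:**
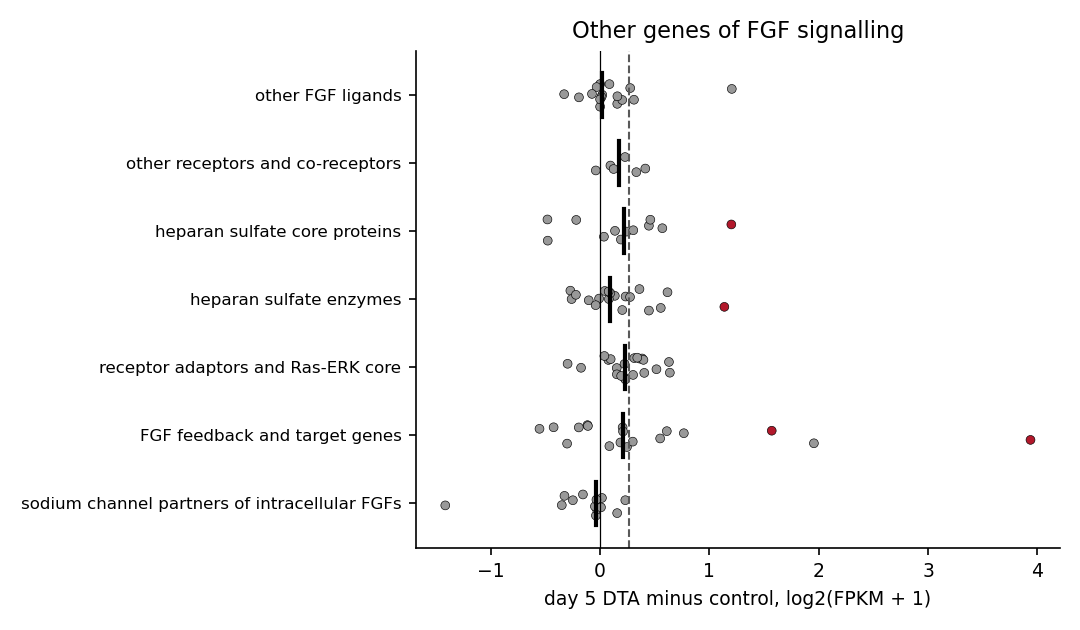
Difference between day 5 DTA and day 5 control, on the log2(FPKM + 1) scale, for each gene of the 7 lists, with 1 point per gene, a black bar at each list's median and a dashed line at the median of all tested genes, 0.26. The 4 red points are the genes called higher, Egr1 furthest at 3.94, and grey points beyond 1 in size (Myc, Fgf17 and Scn4a) lie under 5 FPKM.

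The genes whose pattern was most like that of Fgf2 over the 3 full libraries were Timp1, Bcl3, Maff, Edn2 and Ccl5, at distances of 0.31, 0.32, 0.52, 0.59 and 0.65. The distance is Euclidean over 2 differences on the log2(FPKM + 1) scale, day 5 DTA minus each control, among 9094 genes. Timp1, a metalloproteinase inhibitor, stood at 32.5 FPKM in day 5 DTA, 0.484 FPKM in day 5 control and 0.124 FPKM in day 1 control. Edn2, endothelin 2, stood at 79.4 FPKM in day 5 DTA, 4.88 FPKM in day 5 control and 1.24 FPKM in day 1 control. Bcl3, a regulator of NF-kappa B, stood at 24.9 FPKM in day 5 DTA, 0.297 FPKM in day 5 control and 0.164 FPKM in day 1 control. In each of the 5 the DTA library was far above both controls, which their choice by these differences fixed in advance. Nudt6 came at rank 9 in that order, at a distance of 0.81.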

How the data were processed

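Per the labels' protocols, RNA of whole retinas went into libraries of Illumina's mRNA-seq sample kit. The deposited values are FPKM per gene with lower and upper bounds and a status, per the file headers, as the authors made them. Tools named, without roles, in the submitters' processing notes are Cufflinks 2.1.1, CASAVA 1.8.2 and bcl2fastq 1.8.4, with the build mm9; which aligner and annotation were used is not stated there. Being scaled to each library's fragments, FPKM of all genes move when very abundant transcripts such as those of rods do.

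Lines with status FAIL or HIDATA were read as missing, and loci of one symbol were summed. Locus starts were written with 1 added. Depth was estimated with Python 3.11.15, numpy 2.4.6 and pandas 2.3.3 by taking the commonest low product of FPKM and transcript length as 1 fragment, over genes with 1 GENCODE transcript of more than 1500 bases. Fragment numbers per gene rest on that estimate and on the length of the closest GENCODE transcript, and their exact Poisson 95% intervals (scipy 1.17.1) cover counting error only. Calls were made over the whole table with the size rule given above (pseudocount 1, floor 5 FPKM). Every gene of the set is named. Of each pathway list the text names the called genes and up to 2 more with the largest difference at 1 FPKM or more, except 2 that are not reported here; Etv1, Glul, Vim, Crygf and the genes around Fgf2 were picked after their values were seen. The members and lists were chosen with earlier results of these data known. Of the planned protein comparison nothing is reported, since no protein table was used here.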

Additional observations from a re-analysis of the deposited data

How the results depend on the processing

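Fgf2 and Nudt6 were the 2 members called higher at day 5 under each of the 9 alternatives to the rule (pseudocounts, scaling, reference, floor and control requirement). The Fgf2 difference ranged over 3.38 to 4.78 and that of Nudt6 over 3.11 to 4.09. The number called lower was 0, and 1 (Fgf1) after scaling by the median ratio or to the sum without rod markers and the 50 most abundant genes; the median FPKM ratio of day 5 DTA to control is 1.19. In the pathway lists the 4 genes called higher at day 5 became 2, Egr1 and Fos, when the pseudocount was 5 or the scaling was by median ratio. They became a different 2, Agrn and Sulf2, when the day 1 control was used. No gene of the lists was thus called at day 5 under every setting. With a floor of 1 FPKM or none, 6 were called higher and 1 gene (Scn4a) lower. The Fgf11 difference at day 1 was 0.39 against the day 5 control and 0.0405 against the mean of both controls. Against the day 1 control the differences of Fgf9, Fgf13, Fgfr2 and Fgfr3 at day 5 were -0.40, -0.34, -0.19 and -0.04. Of the 7 members whose authors' bounds enclose the FPKM in both day 5 libraries, the bounds overlapped for Fgf9, Fgf13 and Fgfr3. The midpoint of the bounds was chosen as an alternative after seeing the data. The causes were not tested. No paired analysis was possible because each group has 1 library, and no replicate could be left out.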
